A study of Mus musculus with 19 samples.

Results

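The dependence of the hepatic response to polyethylene (PE) on diet was examined as the difference between the effect of PE on the MASH diet and its effect on the control diet, (MD + PE over MD + Veh) minus (CD + PE over CD + Veh). The contrast was formed on the log2 scale for every gene that passed a filter on low counts by group, which left 13597 of 55836 genes, and it used all 19 bulk liver libraries of the series. All mice were wild-type C57BL/6 males, 8 weeks old at the start, and received a daily gavage for 8 weeks. CD + Veh (n = 4) and CD + PE (n = 5) were fed the control diet, which the labels call chow. MD + Veh (n = 5) and MD + PE (n = 5) were fed a diet high in fat, fructose and cholesterol. The gavage held 2 mg of PE per mouse and day in both PE groups and the Tween 20 and water carrier alone in both vehicle groups. Each library came from 1 mouse. Mice of a group were housed together, so that cage and group cannot be told apart. An interaction value is given below as a log2 difference with its standard error (SE). It is negative where PE was followed by a lower level, relative to vehicle, on the MD than on the CD.

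Polyethylene is the plastic of bags and bottles, and ingested particles pass through the gut, whose blood drains to the liver. Hepatocytes build fatty acids from sugar and sterols from acetyl-CoA under the SREBP factors, burn fatty acids in mitochondria and peroxisomes under PPARalpha, and detoxify foreign compounds with cytochrome P450, glutathione and conjugating enzymes. All these programmes respond to diet and follow the circadian clock, an oscillator in which BMAL1 with CLOCK or NPAS2 switches on its own repressors.

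Libraries held 10398820 to 15456729 counts, with every PE library of a diet below every vehicle library of that diet. Vehicle libraries are numbered 39 to 47 and PE libraries 48 to 57, and the part of this order in the PE differences cannot be told apart from that of PE. A further division fell between numbers 45 and 46, inside MD + Veh: the ribosomal pseudogenes Rps6-ps4 and Rps12-ps3 were counted in libraries 39 to 45 and at 0 in libraries 46 to 57. MD + Veh replicates 1 to 3 are libraries 43 to 45 and replicates 4 and 5 are libraries 46 and 47. The hepatocyte identity list was at a mean log2 CPM (counts scaled to a common library size) of 9.21 to 9.48 in the 4 groups. Marker genes of other tissues were high in some libraries: the summed level of a skeletal muscle list was 6631 CPM in MD + Veh replicate 1, against 12.6 to 797 CPM in the other 18, and MD + PE replicate 2 was high in intestinal genes. CD + PE replicate 2 had a Kupffer cell sum of 1401 CPM, against 280 to 774 CPM elsewhere. What these libraries hold beyond liver was not tested, and values without them are given beside the results that moved most.

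Genes differed between PE and vehicle in each diet, and the difference between diets passed the test for a single gene. On the CD, 166 genes (1.22% of those tested) were higher with PE and 231 (1.7%) lower. On the MD, 20 (0.147%) were higher and 127 (0.934%) lower. Calls used edgeR's quasi-likelihood test with Benjamini-Hochberg adjustment and a minimum log2 difference of 0.38. With the division as a covariate, 37 genes were called for PE in CD and 33 for PE in MD, in place of 397 and 147. All CD + Veh libraries lie before the division and all CD + PE libraries after it. PE and the division thus cannot be told apart on the CD. Below, members of a list that PE "raised" or "lowered" are members called at these limits. The words give the direction of PE relative to vehicle and do not separate PE from the division. The interaction passed the same limits for 1 gene, Uck1, which was lower (0.00735%), and for 0 genes that were higher (0%). At an unadjusted p of 0.05 it held 477 higher genes (3.51%) and 716 lower genes (5.27%). DESeq2 called 85 genes, 28 higher (0.206%) and 57 lower (0.419%), of which 1 was also called by edgeR and 16 belong to the skeletal muscle list. The median SE was 0.205 for the interaction, 0.149 for PE in CD and 0.140 for PE in MD, so that a gene needed a larger difference between diets than within a diet to pass.

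**Figure D1:**
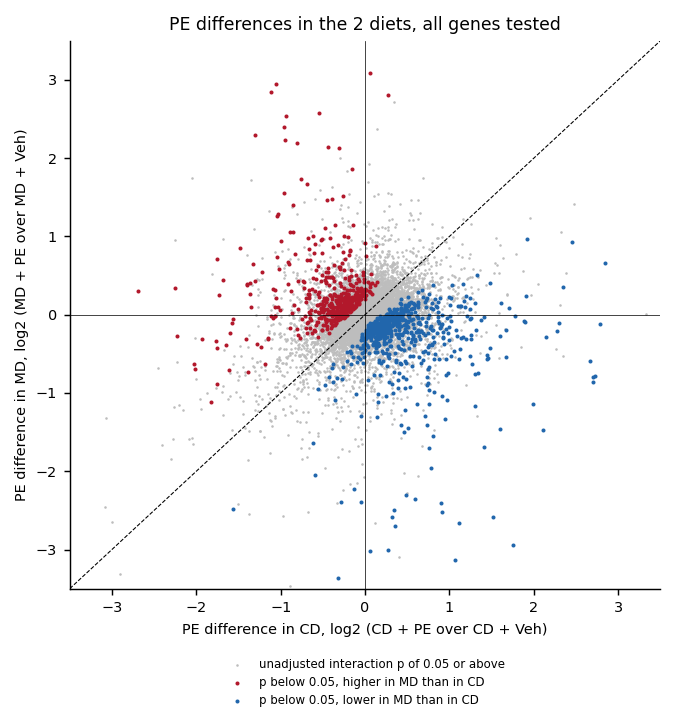
PE difference in MD (log2, vertical axis) against PE difference in CD (log2, horizontal axis) for each gene tested. Red and blue points are the 477 higher and 716 lower genes at an unadjusted interaction p below 0.05, grey points are all others, the dashed line marks equal differences, and 85 genes lie outside the axes.

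The plot of both PE differences shows a broad cloud in which the 2 differences were weakly related, and equal signs were more frequent than opposite signs. Across the 13597 genes Pearson's r between the PE difference in CD and in MD was 0.104 and Spearman's rho 0.235, and r was 0.0767 over the 12440 genes at 1 CPM or more on average. These are descriptions across genes, which are not independent replicates, and the 2 differences share no library. Of the 1193 genes at an unadjusted interaction p of 0.05, 560 were higher with PE on the CD and lower with PE on the MD, 363 showed the opposite, 126 were higher in both diets and 144 lower in both. The PE difference was the larger one on the CD for 720 of them and on the MD for 473, and its median size was 0.37 on the CD and 0.22 on the MD (log2). Opposite signs are favoured by choosing genes on the interaction. In all genes tested, 4031 were higher with PE in both diets, 4175 lower in both, 2921 higher on the CD and lower on the MD, and 2470 the opposite. Over all genes the difference was larger on the CD for 7233 and on the MD for 6364, with median sizes of 0.16 and 0.14.

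Uck1, on chromosome 2 (chr2:32145014-32150350, minus strand, GRCm39), encodes the uridine-cytidine kinase of pyrimidine salvage. Its level was 19.5, 24.4, 22.8 and 22.2 CPM in CD + Veh and 32.7, 35.7, 42.1, 30.5 and 31.8 CPM in CD + PE. It was 40.4, 43.7, 45.6, 46.4 and 43.1 CPM in MD + Veh and 41.9, 36.1, 32.6, 32.5 and 37.9 CPM in MD + PE. All CD + PE libraries lay above all CD + Veh libraries, whereas the MD groups overlapped, and CD + Veh was the lowest group. The interaction was -0.91 (SE 0.134, edgeR adjusted p = 0.0240), from a rise of 0.64 on the CD and a log2 difference of -0.28 on the MD (adjusted p = 0.137). DESeq2 gave an adjusted p of 3.08e-06. The call was lost in 10 of 19 fits that left out 1 library, with values between -0.97 and -0.83. Those libraries were CD + Veh replicates 1 and 4, CD + PE replicate 2, MD + Veh replicates 2 to 5 and MD + PE replicates 2, 3 and 5.

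Ephx1, the microsomal epoxide hydrolase (chr1:180803775-180848537, minus strand), rose with PE on the CD and had the second smallest interaction p among the lower genes. It was at 107, 112, 137 and 115 CPM in CD + Veh, at 207, 227, 249, 215 and 190.4 CPM in CD + PE, at 273, 314, 339, 329 and 279 CPM in MD + Veh and at 361, 352, 348, 341 and 371 CPM in MD + PE. The 4 groups did not overlap and stood in that order. The interaction was -0.68 (SE 0.12, edgeR adjusted p = 0.142, DESeq2 adjusted p = 0.000376), from 0.89 on the CD (adjusted p = 8.22e-05) and 0.21 on the MD (adjusted p = 0.214). Eps8l2, an adaptor of the actin cytoskeleton (chr7:140918255-140944232, plus strand), was at 38.2, 48.5, 57.1 and 30.4 CPM in CD + Veh and at 80.1, 82.9, 104, 81.2 and 89 CPM in CD + PE. In MD + Veh it was at 85.6, 101, 97, 78.3 and 70.4 CPM and in MD + PE at 95.3, 83.3, 87.5, 79.3 and 83.2 CPM. CD + Veh was thus apart from 3 groups that overlapped, and the interaction was -1.02 (SE 0.196, edgeR adjusted p = 0.153).

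Oat, the ornithine aminotransferase of mitochondria (chr7:132159153-132191517, minus strand), was lowest in CD + Veh and highest on average in MD + Veh. Its libraries were at 227, 452, 261 and 325 CPM in CD + Veh, 655, 585, 829.8, 551 and 529.9 CPM in CD + PE, 825, 998, 838, 896 and 929 CPM in MD + Veh and 708, 800.4, 557, 545 and 969.5 CPM in MD + PE. CD + Veh lay below all other groups and the MD groups overlapped (interaction -1.32, SE 0.262, edgeR adjusted p = 0.156). The other genes with the smallest p among those that were lower on the MD were H1f2, a linker histone (-0.91), and Tfpi2, a protease inhibitor (-0.56), of which Tfpi2 fell on the MD by 0.43 and H1f2 rose on the CD by 0.60.

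Among genes whose PE difference was higher on the MD, Irf2, a transcription factor that restrains interferon responses (chr8:47192222-47300501, plus strand), was at 90, 87, 90.1 and 107 CPM in CD + Veh and 75.7, 55.2, 68.4, 68.1 and 68.9 CPM in CD + PE. It was at 62.9, 64.2, 65.9, 65.6 and 75.3 CPM in MD + Veh and at 72.3, 64.3, 86.8, 73.6 and 85.3 CPM in MD + PE. PE lowered it on the CD without overlap, and the MD groups overlapped (interaction 0.67, SE 0.135, edgeR adjusted p = 0.156). Galc, the lysosomal galactosylceramidase (chr12:98167963-98225718, minus strand), was at 15.2, 11.4, 10.1 and 12.1 CPM in CD + Veh, 8.72, 8.51, 7.24, 7.33 and 8.5 CPM in CD + PE, 6.59, 5.95, 5.18, 6.81 and 7.49 CPM in MD + Veh and 8.37, 6.99, 7.91, 10.1 and 6.11 CPM in MD + PE. It was highest in CD + Veh, apart from CD + PE, with an interaction of 0.90 (SE 0.203, edgeR adjusted p = 0.216). Epb41l5, a cell polarity protein, had an interaction of 0.54, Utrn, the dystrophin relative utrophin, of 0.65, Mysm1, a histone deubiquitinase, of 0.53 and Maco1, a protein of the endoplasmic reticulum, of 0.57. PE lowered Epb41l5, Utrn and Maco1 on the CD, and raised Mysm1 on the MD. Of the 11 genes named so far beside Uck1, 0 passed the adjusted limit for the interaction in edgeR over all libraries with the 4 groups alone, and all passed it in DESeq2. In edgeR with the division as a covariate Ephx1, Eps8l2, H1f2, Irf2, Epb41l5, Maco1 (each at an adjusted p of 0.0448) and Galc (0.0473) passed. Within a group this covariate varies only in MD + Veh, replicates 1 to 3 against 4 and 5. Its estimate rests on those libraries, and passing with it, here and below, is no independent support. With the replicate number as a block Ephx1, Eps8l2, H1f2, Irf2, Oat, Maco1 and Mysm1 passed, at adjusted p between 0.0153 and 0.0477. Replicate numbers do not pair the mice (median correlation of residuals 0.0293), so passing with this block, here and below, adds no support. Ephx1 and Eps8l2 also passed without CD + Veh replicate 3, Oat without CD + Veh replicate 2 and H1f2 without MD + PE replicate 4.

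**Figure D2:**
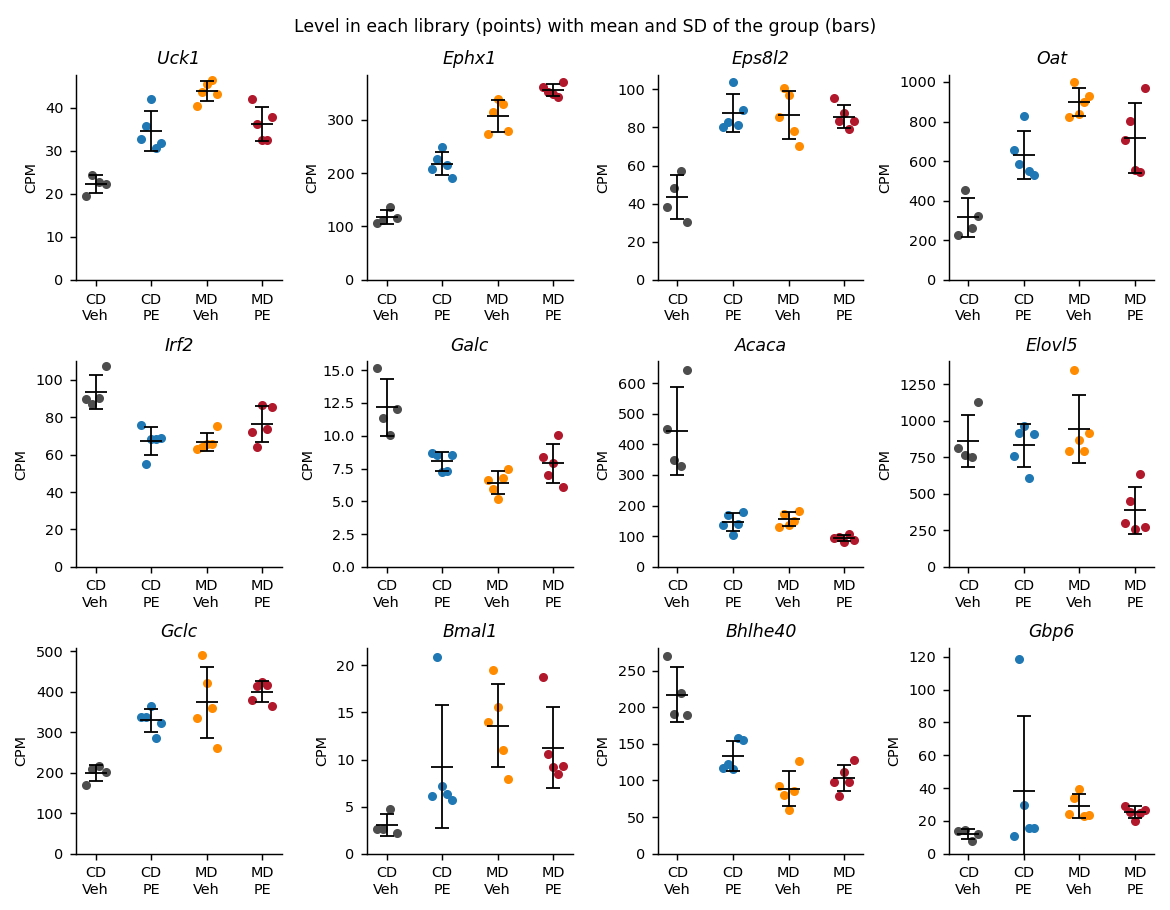
Level (CPM) of 12 genes in each library, by group, with the mean and SD as black bars (n = 4 in CD + Veh and 5 elsewhere; the lower SD bar of Gbp6 in CD + PE runs below 0 and is not drawn in full). In Uck1, Ephx1, Eps8l2, Oat, Irf2, Galc, Acaca, Gclc, Bmal1 and Bhlhe40 the CD + Veh libraries lie apart from the CD + PE libraries. In Ephx1, Acaca and Elovl5 the MD + PE libraries lie apart from MD + Veh. Naming genes by their interaction p favours groups that lie apart, and the share over all genes was not counted.

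Functional groups were described by 53 lists, each by the count of its members in each direction and by the median of its interaction values, beside the median of all genes tested, -0.02. Of the 13597 genes tested, 6389 (47%) had a positive interaction and 7208 a negative one, and sign counts of a list stand against this share. These counts and medians are descriptions, and no list was tested as a set. The plot of list medians shows fatty acid oxidation, glutathione, amino acid catabolism, mitochondrial transcripts, interferon-stimulated genes, antigen presentation and Kupffer cells to the left of 0, and fatty acid synthesis, the clock, immediate early genes, bile duct genes and ribosomal pseudogenes to the right.

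**Figure D3:**
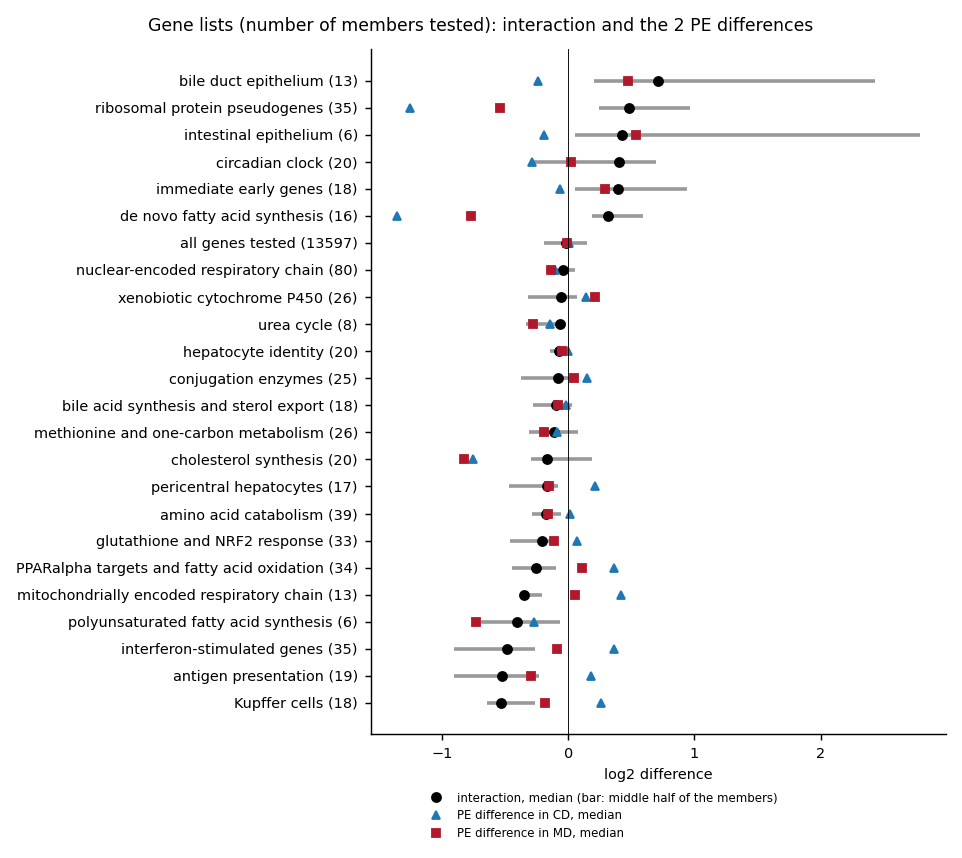
Median log2 difference of the members of each list, as the interaction (black circles, with bars over the middle 50% of the members), PE in CD (blue triangles) and PE in MD (red squares), with the number of members tested in parentheses. Fatty acid synthesis has both PE medians below 0 and the interaction median at 0.32, while interferon-stimulated genes have PE medians on opposite sides of 0; the skeletal muscle list, at -10.17, is not drawn.

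Most fatty acid synthesis genes fell with PE in both diets, with a median further below 0 on the CD. Of 16 enzymes and regulators, PE lowered 12 on the CD and 9 on the MD, against 1.7% and 0.934% of all genes, and raised 0 on either. The median PE difference was -1.36 on the CD and -0.77 on the MD. The interaction was positive in 13 of 16, with a median of 0.32 (0.27 to 0.43 without any 1 library, and 0.11 without libraries 43 to 45 of MD + Veh). At an unadjusted p of 0.05, 3 members were higher and 2 lower, against 3.51% and 5.27% of all genes. Acaca, the acetyl-CoA carboxylase of the cytosol, was at 449, 349.8, 331 and 643 CPM in CD + Veh and 137, 168, 103, 139.6 and 179 CPM in CD + PE. It was at 129, 173, 138, 151 and 183 CPM in MD + Veh and 95.3, 97.5, 82.5, 108 and 88.9 CPM in MD + PE. With PE it fell by 1.61 on the CD and fell by 0.71 on the MD, without overlap in either diet, and the CD + PE and MD + Veh libraries overlapped. Its interaction was 0.90 (SE 0.242, edgeR adjusted p = 0.237, DESeq2 adjusted p = 0.039). Elovl6, which elongates palmitate, was at 0.87 and Acly, which makes cytosolic acetyl-CoA from citrate, at 0.70 (0.56 and 0.38 without CD + Veh replicate 4), whereas Acacb, the carboxylase at the mitochondrial surface, was at -0.92.

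The enzymes of polyunsaturated fatty acids showed the opposite order, with a PE difference mainly on the MD. Of the 6 members PE lowered 4 on the MD and 0 on the CD, against 0.934% and 1.7% of all genes. The median interaction was -0.41 (-0.57 without CD + Veh replicate 4 to -0.26 without CD + PE replicate 5). Elovl5, which elongates these acids, was at 810.2, 762, 749.7 and 1128 CPM in CD + Veh and 758, 917, 967, 609 and 909 CPM in CD + PE. It was at 796, 1350, 866, 791 and 919 CPM in MD + Veh and 299.9, 454, 261, 638 and 276 CPM in MD + PE. The other 3 groups overlapped, and MD + PE lay below MD + Veh in every library. The interaction of Elovl5 was -1.24 (SE 0.327, edgeR adjusted p = 0.216, DESeq2 adjusted p = 0.0281), that of the desaturase Fads1 -0.74, of the desaturase Fads2 -0.54 and of the elongase Elovl2 -0.27. Without CD + PE replicate 5 the last 2 were -0.34 and -0.18.

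PE lowered 10 of 20 cholesterol synthesis genes on each diet, against 1.7% of all genes on the CD and 0.934% on the MD. The median PE difference was -0.75 on the CD and -0.82 on the MD. The median interaction of -0.17 ranged from -0.33 without CD + Veh replicate 4 to -0.01 without CD + PE replicate 2. The 3 members at an unadjusted p of 0.05 were all lower (15%, against 5.27% of all genes), among them Tm7sf2, a sterol reductase (-0.48), and Mvk, mevalonate kinase (-0.48). In CPM, Tm7sf2 and Mvk lost more on the CD than on the MD, since their vehicle level was higher there.

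PPARalpha targets and fatty acid oxidation genes had a higher PE difference on the CD than on the MD in nearly every member. The interaction was negative in 33 of 34 members, with a median of -0.26, from a PE median of 0.36 on the CD and 0.11 on the MD. PE raised 7 members on the CD and 0 on the MD, against 1.22% and 0.147% of all genes. At an unadjusted p of 0.05, 7 members were lower (20.6%, against 5.27% of all genes) and 0 higher. The median moved with single CD libraries and was -0.43 without CD + Veh replicate 4 and -0.12 without CD + PE replicate 3. Cpt2, the carnitine palmitoyltransferase of the inner mitochondrial membrane, was at 78.2, 83.4, 89 and 88.9 CPM in CD + Veh and 113, 98.8, 133, 108 and 122 CPM in CD + PE. It was at 114, 119, 134, 147 and 126 CPM in MD + Veh and 130.3, 129, 140.3, 102 and 137 CPM in MD + PE. CD + Veh was below all other groups, which overlapped (interaction -0.44, SE 0.136, edgeR adjusted p = 0.298, DESeq2 adjusted p = 0.156). Acaa1b, a peroxisomal thiolase, had a value of -0.77 and Slc25a20, the carnitine carrier, of -0.45.

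Glutathione and NRF2 genes had a higher PE difference on the CD than on the MD. Of 33 members tested, 28 had a negative interaction and 13 were higher with PE on the CD and lower with PE on the MD. The median was -0.21, between -0.25 and -0.17 without any 1 library. PE raised 4 members on the CD and lowered 2 on the MD, against 1.22% and 0.934% of all genes. At an unadjusted p of 0.05, 7 were lower (21.2%, against 5.27% of all genes) and 0 higher. Gsta3, a glutathione transferase, was at 779, 946, 812 and 961 CPM in CD + Veh and 1056, 1057, 1180, 965 and 1048 CPM in CD + PE. It was at 953, 1110, 1029, 1233 and 1013 CPM in MD + Veh and 919, 946, 781, 713 and 874 CPM in MD + PE. PE libraries lay above vehicle on the CD and below vehicle on the MD, without overlap in either diet, and neither PE difference passed the adjusted test. The interaction of Gsta3 was -0.61 (SE 0.136, edgeR adjusted p = 0.216, DESeq2 adjusted p = 0.00652).

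Gclc, the catalytic subunit of the enzyme that limits glutathione synthesis, was at 171, 208, 217 and 203 CPM in CD + Veh and 338, 337, 364, 285 and 322 CPM in CD + PE. It was at 335, 491, 423, 359 and 261 CPM in MD + Veh and 380.1, 414, 425, 416 and 365 CPM in MD + PE. The rise on the CD was 0.72, the MD groups overlapped, and the interaction was -0.62 (SE 0.18, edgeR adjusted p = 0.252, DESeq2 adjusted p = 0.0899). The transferases Gstm2 (-1.29) and Gstm6 (-0.52) were lower as well, although reads of such near-identical family members can be divided between them. Among 25 conjugation enzymes 18 were negative (median -0.08, from -0.17 without MD + Veh replicate 2 to -0.05 without CD + Veh replicate 4), led by the glucuronosyltransferase Ugt1a9 (-1.16), which shares exons with its neighbours, while the sulfotransferase Sult1c2 was at 0.94. Xenobiotic cytochrome P450 genes stood near the background: 15 of 26 were negative, the median was -0.06, and the median was 0.01 without CD + Veh replicate 1 and -0.18 without CD + PE replicate 2. Their largest values by p were those of Cyp3a25 (-0.63) and its near relative Cyp3a59 (-0.77).

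Bile acid synthesis and sterol export genes gave values on both sides of 0, with 13 of 18 negative and a median of -0.09 (-0.16 without CD + PE replicate 2). Cyp39a1, the hydroxylase of 24-hydroxycholesterol, was the member with the smallest p. It was at 38.7, 32.3, 39.5 and 50 CPM in CD + Veh, 17.9, 16.9, 27.9, 23.4 and 38.4 CPM in CD + PE, 14.8, 10.8, 10.2, 19.9 and 9.66 CPM in MD + Veh and 11.7, 22.1, 18.3, 30 and 23.5 CPM in MD + PE. PE and vehicle overlapped in each diet, with CD + Veh apart from MD + Veh (interaction 1.39, SE 0.365, edgeR adjusted p = 0.216, DESeq2 adjusted p = 0.0282). Cyp8b1, the sterol 12-alpha hydroxylase (-0.74), and Hsd3b7, which acts early in the pathway (-0.45), were lower, and the sterol exporter Abca1 (0.33) was higher.

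Amino acid catabolism genes had a lower PE difference on the MD than on the CD. PE raised 3 and lowered 2 of them on the CD, against 1.22% and 1.7% of all genes. On the MD it raised 0 and lowered 3, against 0.147% and 0.934%. The interaction was negative in 33 of 39 members (median -0.18, from -0.24 to -0.13 without any 1 library). The PE median was 0.02 on the CD and -0.16 on the MD. At an unadjusted p of 0.05, 9 members were lower (23.1%, against 5.27% of all genes) and 0 higher. MD + PE replicate 4 had the lowest mean log2 CPM of this list, 7.34 against 7.54 to 7.79 in the other MD + PE libraries, and without MD + PE replicates 2 and 4 the median was -0.05. Agxt, the alanine-glyoxylate aminotransferase of peroxisomes, was at 152, 181, 202 and 156 CPM in CD + Veh and 245, 189.7, 266, 252 and 247 CPM in CD + PE. It was at 176, 159.6, 183, 158 and 135 CPM in MD + Veh and 159, 135, 152, 121 and 145 CPM in MD + PE. CD + PE lay above both MD groups, and PE and vehicle overlapped in each diet (interaction -0.66, SE 0.155, edgeR adjusted p = 0.216 and 0.0473 with the division as a covariate, DESeq2 adjusted p = 0.0148). The glycine cleavage genes Gldc (-0.72) and Amt (-0.53) were lower too.

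Methionine and one-carbon genes held 17 negative values of 26 (median -0.11, and -0.07 without MD + PE replicate 4). At an unadjusted p of 0.05, 5 were lower and 2 higher, against 5.27% and 3.51% of all genes. Bhmt, which remethylates homocysteine with betaine, was at 1951, 2931, 2090 and 1873 CPM in CD + Veh and 2936, 2490, 3062, 1859 and 2008 CPM in CD + PE. It was at 3380, 4366, 4336, 4142 and 4107 CPM in MD + Veh and 3395, 2703, 2234, 2288 and 2956 CPM in MD + PE. MD + Veh lay above both CD groups, and MD + PE overlapped MD + Veh by 1 library (interaction -0.74, SE 0.23, edgeR adjusted p = 0.298, DESeq2 adjusted p = 0.101). Gnmt, the glycine methyltransferase (-0.51), and Cth, which makes cysteine (-0.75), were lower, and Mthfd1l, a folate enzyme of mitochondria, was higher (2.12, SE 0.597). Of the urea cycle, 7 of 8 members were negative, including Nags (-0.42), which makes the activator of the first step, the ornithine carrier Slc25a15 (-0.32) and Ass1 (-0.39), which joins citrulline to aspartate, and the median was -0.06 (-0.13 without CD + PE replicate 2, and about 0 without MD + PE replicate 4). Pericentral hepatocyte genes had a median of -0.17 with 14 of 17 negative and 5 lower at an unadjusted p of 0.05 (29.4%, against 5.27% of all genes). Their median was -0.10 without MD + PE replicate 4 and -0.06 without MD + PE replicates 2 and 4. Periportal genes had a median of -0.03 with 10 of 17 negative (-0.10 without CD + Veh replicate 3, 0.04 without MD + PE replicate 2).

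The circadian clock list had interaction values of opposite sign for activators and for a repressor of the oscillator. The list median was 0.40 (13 of 20 positive), from a PE median of -0.28 on the CD and 0.02 on the MD. It was 0.26 without CD + PE replicate 2 and 0.18 without libraries 43 to 45. At an unadjusted p of 0.05, 2 members were higher and 4 lower, against 3.51% and 5.27% of all genes. The activators Bmal1 and Npas2 were lower in interaction and the repressor Bhlhe40 was higher. Their promoters are shown because their interaction values had opposite signs and clock factors act through the letters CACGTG and AGGTCA, the latter being the core bound by ROR and REV-ERB proteins. The windows are the 250 bases before the canonical GENCODE start on GRCm39, plus strand, and capitals mark a match to either set of letters.
Bmal1 chr7:112806393-112806642: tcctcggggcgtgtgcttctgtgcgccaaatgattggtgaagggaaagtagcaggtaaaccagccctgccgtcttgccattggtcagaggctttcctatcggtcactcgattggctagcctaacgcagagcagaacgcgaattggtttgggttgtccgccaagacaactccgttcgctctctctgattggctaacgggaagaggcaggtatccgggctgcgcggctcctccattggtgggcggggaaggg
Npas2 chr1:39232984-39233233: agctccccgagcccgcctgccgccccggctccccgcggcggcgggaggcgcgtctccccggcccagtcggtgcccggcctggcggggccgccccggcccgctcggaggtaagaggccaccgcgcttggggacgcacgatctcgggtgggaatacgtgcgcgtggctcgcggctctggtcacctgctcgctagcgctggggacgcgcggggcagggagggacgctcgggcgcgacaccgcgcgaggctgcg
Bhlhe40 chr6:108636376-108636625: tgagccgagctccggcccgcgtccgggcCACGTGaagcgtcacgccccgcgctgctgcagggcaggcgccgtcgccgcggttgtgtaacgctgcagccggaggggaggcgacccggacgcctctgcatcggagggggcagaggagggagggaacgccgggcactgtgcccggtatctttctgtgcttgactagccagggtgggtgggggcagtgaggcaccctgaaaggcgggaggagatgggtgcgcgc
Both sets of letters were searched on both strands, and they do not overlap each other in these windows. CACGTG was found once in the Bhlhe40 window, 222 bases before the start, and 0 times in the other two, and AGGTCA was found in 0 of these windows. In 12345 promoters of tested protein-coding genes of the same length, CACGTG occurred in 957 (7.75%) and AGGTCA in 1462 (11.8%). The Bmal1 and Npas2 windows lie past the first annotated base of their genes (chr7:112806152 and chr1:39232705). Only exact letters within 250 bases were searched, so sites elsewhere or with other letters were not looked for. A match or its absence is a description of the sequence only.

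Bmal1 was at 2.61, 2.65, 4.76 and 2.22 CPM in CD + Veh and 6.14, 20.9, 7.15, 6.33 and 5.73 CPM in CD + PE. It was at 13.9, 19.5, 15.5, 11 and 7.96 CPM in MD + Veh and 18.8, 10.6, 9.21, 8.45 and 9.34 CPM in MD + PE. CD + Veh lay below all other groups, and CD + PE replicate 2 exceeded all other libraries. The interaction was -1.87 (SE 0.523, edgeR adjusted p = 0.247, DESeq2 adjusted p = 0.039) and -1.32 without CD + PE replicate 2. Npas2, the partner of BMAL1 beside CLOCK, was at 0.0674 to 0.645 CPM in CD + Veh, 0.603 to 5.53 CPM in CD + PE, 1.39 to 7.99 CPM in MD + Veh and 1.53 to 4.88 CPM in MD + PE. It was highest in CD + PE replicate 2 within its group, and its interaction was -3.26 (SE 0.968, edgeR adjusted p = 0.272, DESeq2 adjusted p = 0.0497) and -2.39 without that library. Clock itself had a value of -0.47.

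Bhlhe40, a repressor that competes at clock elements, was at 269.9, 191, 219 and 189 CPM in CD + Veh, 117, 123, 116, 157 and 155 CPM in CD + PE, 92.7, 80.7, 59.3, 85.4 and 127 CPM in MD + Veh and 98.3, 79.2, 111, 98.5 and 127 CPM in MD + PE. CD + Veh lay above all other groups, and it fell by 0.70 with PE on the CD (interaction 0.91, SE 0.241, edgeR adjusted p = 0.218 and 0.0388 with the replicate number as a block, DESeq2 adjusted p = 0.0301). Klf10, an immediate early zinc finger factor with a daily rhythm, was at 88.1, 25.3, 59.9 and 52.5 CPM in CD + Veh and 23.7, 16, 19.2, 29.3 and 26.2 CPM in CD + PE. It was at 12.1, 11.1, 8.39, 17.5 and 22.9 CPM in MD + Veh and 14.9, 13.6, 17.5, 19.9 and 31.2 CPM in MD + PE. On the CD it fell by 1.31 with PE, with CD + Veh replicate 2 inside the range of CD + PE, and the interaction was 1.74 (SE 0.442, edgeR adjusted p = 0.216, DESeq2 adjusted p = 0.0148). The immediate early list as a whole had a median of 0.39 with 14 of 18 positive, and of 0.21 without CD + Veh replicate 2 and 0.15 without MD + PE replicates 2 and 4.

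Transcripts encoded by the mitochondrial genome had a higher PE difference on the CD than on the MD. The median interaction of the 13 was -0.35 (10 negative, -0.41 to -0.25 without any 1 library), from PE medians of 0.42 on the CD and 0.05 on the MD. The 4 members at an unadjusted p of 0.05 were all lower (30.8%, against 5.27% of all genes). They were mt-Nd1 (-0.37), mt-Nd5 (-0.47), mt-Co1 (-0.38) and mt-Cytb (-0.43), of which mt-Nd1 and mt-Nd5 rose on the CD. mt-Nd3, named here after its values were seen, fell by 0.67 on each diet. mt-Nd1, a subunit of complex I, was at 7199, 8112, 9036 and 8829 CPM in CD + Veh and 11861, 9612, 11118, 11330 and 10311 CPM in CD + PE. It was at 8809, 8026, 9253, 8214 and 9842 CPM in MD + Veh and 9193, 9291, 9233, 7988 and 8840 CPM in MD + PE. CD + PE lay above CD + Veh and MD + PE, and the MD groups overlapped. The 80 nuclear-encoded subunits of the same complexes had a median of -0.04 (-0.08 without CD + PE replicate 2, -0.01 without CD + Veh replicate 1). Of them 47 were negative, and 3 were lower at an unadjusted p of 0.05 (3.75%, against 5.27% of all genes).

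**Figure D4:**
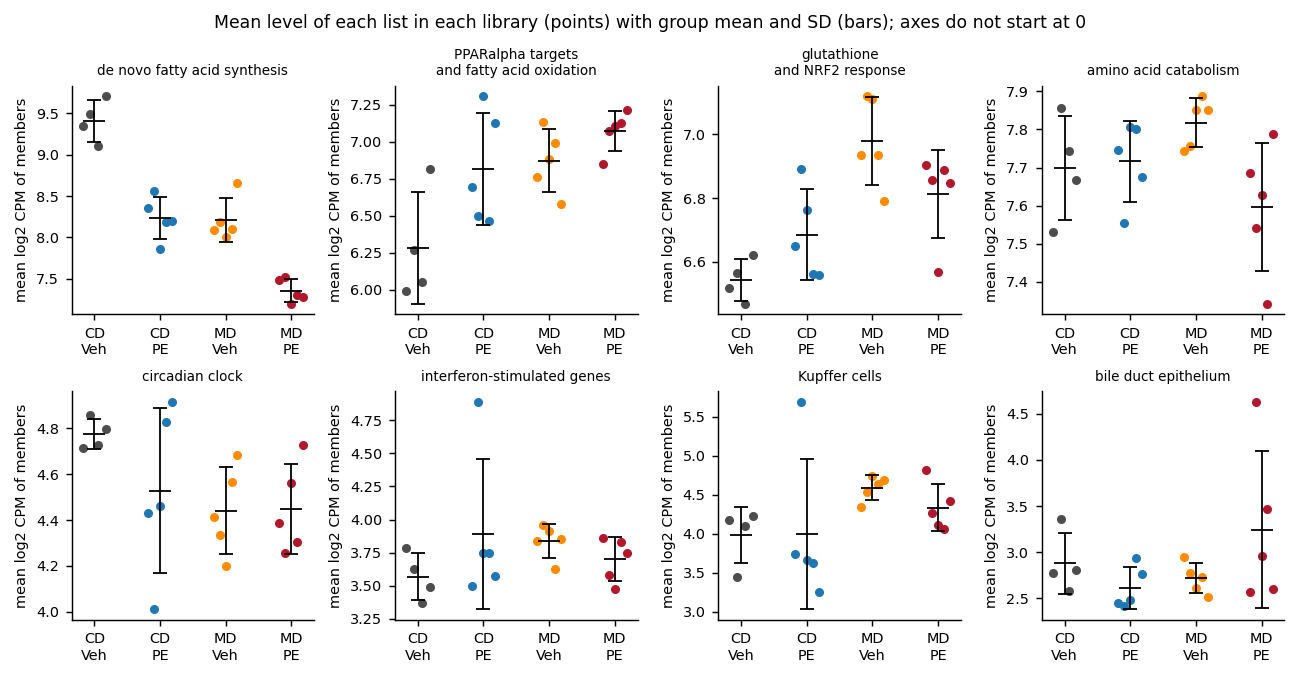
Mean log2 CPM of the members of 8 lists in each library, by group, with the mean and SD as black bars (n = 4 in CD + Veh and 5 elsewhere; the axes do not start at 0). CD + PE replicate 2 stands above all other libraries in interferon-stimulated genes and Kupffer cells, and MD + PE replicate 2 in bile duct epithelium.

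Interferon-stimulated, antigen presentation and Kupffer cell genes had negative interactions in nearly every member, and their medians were closest to or past 0 without CD + PE replicate 2. Interferon-stimulated genes were negative in 34 of 35 members (median -0.48), antigen presentation genes in 19 of 19 (median -0.52) and Kupffer cell genes in 17 of 18 (median -0.53). At an unadjusted p of 0.05, 8, 3 and 0 of them were lower (22.9%, 15.8% and 0%, against 5.27% of all genes) and 0 were higher. For PE, 0 of their members were called in either diet, against 0.147% to 1.7% of all genes by diet and direction. Without CD + PE replicate 2 the medians were -0.20, -0.05 and 0.24, so that the Kupffer cell list changed sign. Other immune lists were less uniform in sign. Lipid-associated macrophage genes were positive in 10 of 14 (median 0.33, -0.14 without MD + PE replicate 4 and 0.72 without CD + PE replicate 2), and chemokines and NF-kB targets in 11 of 26 (median -0.09, 0.01 without CD + PE replicate 2). Of the lymphocyte and neutrophil list 6 of 20 members passed the filter, 4 of them negative (median -0.69, -0.20 without CD + PE replicate 2). The summed level of the Kupffer cell list was 340 to 511 CPM in CD + Veh, 280 to 385 CPM in the other 4 CD + PE libraries, 585 to 774 CPM in MD + Veh and 479 to 712 CPM in MD + PE. Its defining genes were counted in all 19 libraries, and Adgre1, the F4/80 antigen, was at 45.6 CPM in CD + PE replicate 2 and at 3.85 to 18.5 CPM elsewhere. The part of these cells in the interferon and antigen presentation values was not tested. In bulk tissue, fewer cells of a type and less RNA per cell cannot be told apart. Gbp6, an interferon-induced GTPase, was at 13.6, 14.6, 7.52 and 12.1 CPM in CD + Veh, 10.9, 119, 29.9, 15.4 and 15.5 CPM in CD + PE, 24.5, 34.3, 39.5, 22.8 and 23.8 CPM in MD + Veh and 29.3, 25.4, 19.8, 25.1 and 26.8 CPM in MD + PE. The 119 CPM of CD + PE replicate 2 lay above all other libraries, and the interaction of -1.87 (SE 0.695, edgeR adjusted p = 0.425) was -0.78 without it.

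B2m, the light chain of MHC class I, was at 939.9, 1021, 1041 and 1034 CPM in CD + Veh and 1245, 1758, 1323, 1219 and 1099 CPM in CD + PE. It was at 1121, 1163, 1249, 1179 and 1391 CPM in MD + Veh and 1384, 1152, 1121, 977 and 1264 CPM in MD + PE. All CD + PE libraries lay above all CD + Veh libraries, and the interaction of -0.45 (SE 0.164, edgeR adjusted p = 0.419) was -0.32 without CD + PE replicate 2. Mx1, an antiviral GTPase, had a value of -1.44, the GTPase Igtp of -1.91, Irf9, which carries the interferon signal to DNA, of -0.38, the MHC class I gene H2-K1 of -0.43 and the immunoproteasome subunit Psmb9 of -0.96. Without CD + PE replicate 2 these values were -1.19, -0.60, -0.31, -0.26 and -0.34. Marco, a scavenger receptor of Kupffer cells, was at 256 CPM in CD + PE replicate 2 and at 2.33 to 40.1 CPM in the other 18 libraries, and its interaction was -2.87 (SE 1.39) with this library and -0.21 without it.

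Markers of bile duct, intestine and muscle were high in few libraries. The bile duct list was positive in 12 of 13 members, with a median of 0.72. At an unadjusted p of 0.05, 6 members were higher (46.2%, against 3.51% of all genes). Its summed level was 722 and 837 CPM in MD + PE replicates 2 and 4, against 393 to 559 CPM in the other 17 libraries. Without both the median was 0.23. Without any 1 library it was 0.64 or more, and it was 1.35, 1.47 and 1.45 without CD + Veh replicates 1, 3 and 4. Krt19, a keratin of duct cells, was at 58.7 CPM in MD + PE replicate 2 and at 0.351 to 8.17 CPM elsewhere, and its interaction of 3.96 (SE 1.49) was 0.81 without that library. Pkhd1, the fibrocystin of duct cilia, was at 0.72 (SE 0.207), and Tspan8 (3.59) and Cldn7 (3.36) are membrane proteins shared by duct and gut epithelium, at 2.28 and 1.37 without MD + PE replicate 2. The 6 tested intestinal genes had a median of 0.43, and of 0.01 without MD + PE replicate 2, whose summed level of 622 CPM lay above the 187 to 264 CPM of the other libraries. Of the defining genes of gut epithelium, Vil1 was at 22.7 CPM in that library and at most at 0.64 CPM elsewhere, and Cdx1 was at 0.42 CPM there and at 0 in the other 18. They included the glucose carrier Slc5a1 (3.48) and the protease Ctse (5.55), which rose with PE on the MD. Slc5a1 was at 1.59 without MD + PE replicate 2, and Ctse at 1.74 without CD + Veh replicate 2.

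The skeletal muscle list was negative in all 30 tested members, with a median of -10.17 and 28 lower at an unadjusted p of 0.05 (93.3%, against 5.27% of all genes). Of 33 listed genes, 30 passed the low-count filter, which a gene can pass through the group where it is high. These genes were highest in MD + Veh, and passing through that group favours a negative interaction. The sign and p counts of this list are thus no support for an interaction. The median was -6.83 without CD + PE replicate 1, -7.51 without MD + Veh replicate 1 and -12.70 without CD + Veh replicate 2. It was -3.49 without the first 2 of these libraries together, -3.17 without libraries 43 to 45, -5.04 with the stricter filter and -5.47 in limma voom, and the median was -10.08 with the 2 members that were at 0 in a whole group set at their bound of 3 counts per library. DESeq2 called 16 members of the list for the interaction, all lower, against 0.419% of all genes. Acta1, skeletal alpha-actin, was at 775, 48.9, 33.3, 3.95 and 0.154 CPM in MD + Veh, at 155 CPM in CD + PE replicate 1, at 6.95 CPM in CD + Veh replicate 2 and at most at 2.37 CPM in the other libraries of the series. Its fitted interaction was -13.71 (SE 3.22, edgeR adjusted p = 0.216, DESeq2 adjusted p = 0.000451), against groups with few or 0 counts, and -8.59 without CD + PE replicate 1. Tnnt3 and Tnnc2, troponins of fast fibres, were at -12.30 and -12.38. Leaving the list out of the fit left the interaction call at 1.

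**Figure D5:**
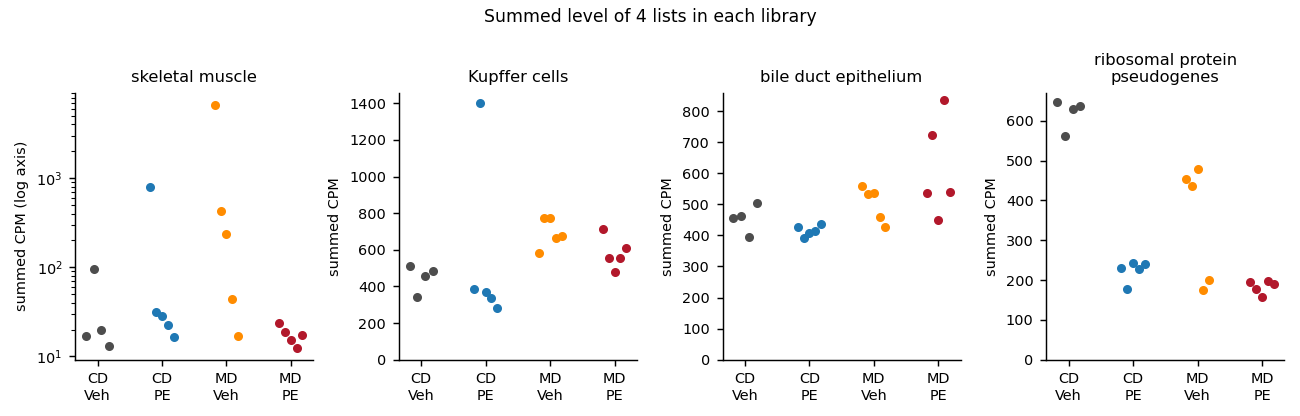
Summed CPM of the tested and untested members of 4 lists in each library, by group; the muscle panel has a log axis and the others start at 0. Muscle genes are highest in MD + Veh replicate 1 (6631 CPM), Kupffer cell genes in CD + PE replicate 2 (1401 CPM) and bile duct genes in MD + PE replicate 4 (837 CPM), and ribosomal pseudogenes are highest in CD + Veh.

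Ribosomal protein pseudogenes are copies of ribosomal genes that share most of their sequence with the parent. Of 310 listed, 35 passed the low-count filter. Their median interaction was 0.48, with 30 of 35 positive and 6 higher at an unadjusted p of 0.05 (17.1%, against 3.51% of all genes). A gene can pass the filter through CD + Veh, where this list was highest, and this favours a positive interaction. The median was the same with the 4 members that were at 0 in a whole group set at their bound. PE lowered 16 of the 35 on the CD and 3 on the MD, against 1.7% and 0.934% of all genes. The sum over all 310 was 561 to 646 CPM in CD + Veh, 436 to 479 CPM in MD + Veh replicates 1 to 3 and 158 to 242 CPM in all other libraries, MD + Veh replicates 4 and 5 included. With the division as a covariate the median was 0.28, with libraries 46 and 47 left out 0.26 and with libraries 43 to 45 left out 0.90. Rpl10a-ps1 (chr1:65033110-65033763) was at 56.3, 49.1, 37.3 and 43.8 CPM in CD + Veh and at 0 in all 5 CD + PE libraries, where 3 counts, the most that a count of 0 allows, equal at most 0.301 CPM. It was at 33.2, 33, 34.9, 11.8 and 0 CPM in MD + Veh and at 6.83, 0, 4.61, 0 and 0 CPM in MD + PE. Rpl17-ps3 (1.99), Rps6-ps3 (1.51) and Rps23-ps1 (0.48) were the other members with the smallest p. Reads of these genes and of their parents cannot be told apart with certainty.

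The division touched the interaction calls as well. With it as a covariate edgeR called 54 genes, 12 higher and 42 lower, of which 40 were also called by DESeq2 and 16 belong to the muscle list, and PE in CD and in MD then held 37 and 33 called genes in place of 397 and 147. Among the genes of the lists above, Gclc, Agxt, Klf10, Acta1, Tnnt3 and Tnnc2 passed in that fit, and Gldc, Bhlhe40, Klf10, Acta1, Tnnt3 and Tnnc2 with the replicate number as a block. The value of Uck1 was -0.89 with the covariate, -0.90 without libraries 46 and 47 and -0.95 without libraries 43 to 45. Since libraries 39 to 45 are all from vehicle mice, what the division itself changed in these genes and what PE changed cannot be told apart on the CD. The interaction contains the CD difference, and the division also runs through MD + Veh, so the interaction carries the same limit. Without libraries 43 to 45, 18 of 53 list medians moved by more than the SD between libraries of a group, and 45 kept their sign.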

How the data were processed

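Bulk poly(A) liver RNA of 19 mice was analysed, 1 library per mouse. Per the submitters' processing notes, fastp 0.23.4, Salmon 1.10.3, DESeq2 and GRCm39 were used. The authors trimmed reads, quantified transcripts and summed them to genes, and the deposited values are estimated counts per gene, held as whole numbers with no normalization. The GENCODE release is not given in the sources used here. The study's methods call the libraries stranded and the labels call them standard, so reads of a gene and of an antisense partner may not be separated. All 171 pairs of libraries held different values, and libraries of a group correlated at 0.956 to 0.99 on log2 CPM.

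Groups were taken from the sample labels. Counts were fitted in R 4.3.3 with edgeR 4.0.16 (TMM, filterByExpr by group, 1 coefficient per group, quasi-likelihood F test) over all 19 libraries, and p-values were adjusted by Benjamini-Hochberg over 13597 genes. A gene was called at an adjusted p below 0.05 and an absolute log2 difference of at least 0.38. In text, "rose" and "fell" are used for called genes, and counts of list members "raised" or "lowered" are counts of called genes. These words give the direction of PE relative to vehicle and do not separate PE from the division between libraries 45 and 46. The SE is the size of the log2 difference divided by the square root of F. CPM are counts scaled by TMM library sizes, and 1 CPM stands for about 10 to 16 counts. List levels are means of log2 CPM with a prior count of 2. DESeq2 1.42.0 and limma 3.58.1 (voom with sample weights) were alternatives, as were RLE scaling, no filter, a stricter filter (all libraries of a group at 10 counts or more, and 1 CPM on average), no minimum log2 difference, robust dispersion, the replicate number as a block, the division between libraries 45 and 46 as a covariate, thinning to equal depth, leaving out the muscle list, differences in CPM, and leaving out each library. Leaving out MD + PE replicates 2 and 4, MD + Veh replicate 1 with CD + PE replicate 1, and either side of the division in MD + Veh was chosen after seeing the data. The analysis was tested on simulated data.

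The comparison and the 53 gene lists were chosen with earlier results of these data known, among them Rps6-ps4, Rps12-ps3 and the muscle genes. Genes were named where they were called for the interaction, were among the 6 with the smallest p in each direction at a mean of at least 5 CPM in a group, were among the 4 members with the smallest p in a described list, or defined a marker list that is high in single libraries. Some genes that this rule names are not reported here. Replicates are mice of a group, and p-values set a difference against the spread between mice, estimated over the 4 groups together. Positions and promoters are those of GENCODE vM39 on GRCm39. Limits from counts of 0 use 3 counts and cover counting error only.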

Additional observations from a re-analysis of the deposited data

Results flagged for a closer look

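In 196 group ranges (4 groups of 24 lists and 25 genes), 23 had 1 library whose gap to its nearest neighbour, as a share of the whole range, exceeded Dixon's 95% critical value. Chance flags about 1 in 20 ranges, or 9.8 here, but lists and genes named for being high in single libraries are among the items and genes stand beside their own lists, so that the ranges are not independent and the 2 numbers cannot be compared. CD + PE replicate 2 was high in interferon-stimulated genes (gap 0.816 of the range), antigen presentation (0.777), Kupffer cells (0.799) and Bmal1 (0.838), and low in Agxt (0.751). MD + PE replicate 2 was high in intestinal epithelium (0.892) and Krt19 (0.809), and MD + PE replicate 1 was high in Bmal1 (0.721). MD + PE replicate 3 was low in glutathione genes (0.825), at a mean log2 CPM of 6.57 against 6.85 to 6.90 in the others. MD + PE replicate 4 was low in mitochondrially encoded genes (0.834), at 11.15 against 11.54 to 11.61, and in Cpt2 (0.733).

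CD + Veh replicate 2 was low in Kupffer cell genes (0.830) and high in skeletal muscle genes (0.896) and Acta1 (0.939), CD + PE replicate 1 was high in skeletal muscle genes (0.751) and Acta1 (0.788), and CD + Veh replicate 4 was high in Irf2 (0.829). In MD + Veh, replicate 5 was high in fatty acid synthesis (0.718) and Irf2 (0.746) and low in Rpl10a-ps1 (0.711), replicate 4 was low in antigen presentation (0.792), replicate 2 was high in Elovl5 (0.719), and replicate 1 was low in Bhmt (0.761).

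The interaction of Uck1, -0.913 on the log2 scale, is listed because the PE differences of the 2 diets differed by the test of the interaction itself.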

How the results depend on the processing

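With a median SE of 0.205 and 4 or 5 mice per group, calls for the interaction depended on the tool and on single libraries. The edgeR count of 1 was 85 in DESeq2, 3 in limma voom, 54 with the division as a covariate, and 0 without MD + Veh replicate 1 and MD + PE replicate 2 together and without MD + PE replicates 2 and 4 together. It was between 0 and 3 without any 1 library: 0 without CD + Veh replicates 1 or 4, CD + PE replicate 2, MD + Veh replicates 2 to 5 or MD + PE replicates 2, 3 or 5, 2 without CD + Veh replicate 2 or MD + PE replicate 4, and 3 without CD + Veh replicate 3. RLE scaling, both filters, robust dispersion, no minimum log2 difference, thinning and leaving out the muscle list kept it at 1. Left-out libraries 46 and 47, or 43 to 45, also gave 1 gene, which was not Uck1. The replicate numbers do not pair the mice (median correlation of residuals 0.0293 over 27 pairs, 6 above 0.1), and with the replicate block 41 genes were called, 10 higher and 31 lower, of which 31 were also called by DESeq2.

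The 1193 genes at an unadjusted p of 0.05 became 1887 with no filter, and the split of 477 higher and 716 lower was 536 and 646 with RLE scaling. For PE in CD, 397 became 37 with the division as a covariate, and 215 to 426 without any 1 library (215 without CD + Veh replicate 4, 235 without CD + Veh replicate 1, 240 without CD + PE replicate 3). For PE in MD, 147 became 296 in DESeq2, 33 with the division as a covariate, 58 without MD + Veh replicate 1 and MD + PE replicate 2, 53 without MD + PE replicates 2 and 4, 424 without libraries 46 and 47 and 18 without libraries 43 to 45. Without any 1 library it was 56 (MD + PE replicate 3) to 243 (MD + Veh replicate 4), with 84 without MD + Veh replicate 1 or MD + PE replicate 4, 85 without MD + PE replicate 2 and 89 without MD + Veh replicate 2. As a difference of differences in CPM, Acacb was 184.0, Mvk 0.923 and Tm7sf2 5.61, all positive while their log2 values are negative. Of 53 list medians, 44 (without MD + PE replicates 2 and 4) to 53 kept their sign in each setting. Medians that moved by more than the SD between libraries of a group numbered 18 without libraries 43 to 45, 7 without MD + PE replicates 2 and 4, and 0 to 5 in the other settings. The causes were not tested.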

Other observations

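Growth hormone and IGF genes had 12 negative interaction values of 16 (median -0.26, and -0.10 without CD + PE replicate 1). Stat5a, which carries the growth hormone signal, was at -0.73 (SE 0.191), Igfbp2, a binding protein of IGF, at 0.59 and Lepr, the leptin receptor, at 1.77 (SE 0.698; 1.1 without CD + Veh replicate 4). In lipid droplet genes 14 of 23 were negative (median -0.11, from -0.22 without CD + Veh replicate 4 to -0.02 without CD + Veh replicate 1), while Abhd5, the activator of the first triglyceride lipase, was at 0.70 (SE 0.172), with an adjusted p of 0.0301 in DESeq2. Among 10 tested genes of sterol sensing and LDL uptake 7 were negative (median -0.16), with Scap, the escort of the SREBP factors, at 0.48 and Insig2, which holds that escort back, at -0.69. None of these genes passed the adjusted limit for the interaction in edgeR over all libraries with the 4 groups alone, and Abhd5 passed it with the division as a covariate (0.87, adjusted p = 0.0448).

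ER stress genes were positive in 22 of 29 (median 0.15, from 0.04 without CD + Veh replicate 3 to 0.26 without CD + PE replicate 4, and 0.06 without libraries 43 to 45). The 3 members higher at an unadjusted p of 0.05 (10.3%, against 3.51% of all genes) were Atf3, a stress-induced factor (2.33, SE 0.872, and 1.26 without MD + PE replicate 4), Ppp1r15a, which restores translation (0.54), and Ern1, the IRE1 sensor (0.41). Acute phase plasma proteins were positive in 24 of 30 (median 0.20, and 0.12 without MD + Veh replicate 1) and sinusoidal endothelium genes in 22 of 25 (median 0.15, and 0.09 without MD + Veh replicate 5), with 2 (6.67%) and 1 (4%) members higher at an unadjusted p of 0.05, near the 3.51% of all genes. Among pericentral genes, the ammonium carrier Rhbg was at -1.01 and the secreted protein Lect2 at -0.47. Proteasome subunits (median -0.02, 20 of 34 negative) and lysosome and autophagy genes (median -0.05, 23 of 37 negative, -0.10 with MD + PE replicate 4 left out and 0.02 with MD + Veh replicate 2 left out) lay near the median of all genes.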
